A study of Mus musculus with 24 samples.

Results

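The 10 genes described here encode the machinery that loads and displays peptides on major histocompatibility complex (MHC) class I molecules. They were taken from a table of 22274 mouse genes by matching gene identifiers to symbols, and all 10 were found: the heavy chains *H2-D1*, *H2-K1* and *H2-T23*, the light chain *B2m*, the peptide transporter subunits *Tap1* and *Tap2*, tapasin (*Tapbp*), the immunoproteasome subunits *Psmb8* and *Psmb9*, and the regulator *Nlrc5*. mRNA was sequenced in 24 libraries of male C57BL/6J mice, in 8 groups of 3. Hypothalamic tissue came from Sham mice (Sham), from mice 3 or 10 days after pituitary stalk electrical lesion (PEL_3d, PEL_10d), a cathodic burn through the stalk that joins hypothalamus and pituitary, and from the same kinds of mice given growth hormone (Sham_GH, PEL_3d_GH, PEL_10d_GH). Hippocampal tissue came from Sham mice (HIP_Sham) and from mice 10 days after the lesion (HIP_PEL_10d). Both kinds of Sham group carry the time label Day 0, so none is matched in time to a lesioned group. Each library is a piece of tissue, so that more cells of a type and more RNA per cell cannot be told apart. The labels do not say whether the libraries of a group came from separate mice, and p-values measure only the spread between these libraries.

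As background, proteasomes cut cytosolic proteins into peptides, the TAP transporter carries these into the endoplasmic reticulum, and tapasin holds the transporter close to empty class I molecules until a peptide binds. A class I molecule is a heavy chain joined to beta-2-microglobulin, the product of *B2m*, and is read at the cell surface by the T-cell receptor and CD8 of cytotoxic T cells and by receptors of natural killer cells. Interferons raise most of these genes together, replace constitutive catalytic subunits of the proteasome with immunoproteasome subunits, and act in part through *Nlrc5*, a transactivator of class I genes. In the uninjured brain class I levels are low in most cells, and microglia and endothelial cells are among the cells known to carry them.

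A pair of libraries stood apart from their labels and touch several results. The library labelled Sham 1 held 0.453 FPKM of *Avp* and 1.46 FPKM of *Oxt*, the neurohypophyseal hormones, with 92.2 FPKM of the hippocampal gene *Neurod6* and 14319.7 FPKM of *Ttr*, a choroid plexus gene. HIP_Sham 1 held the reverse, with 139 FPKM of *Avp*, 606 FPKM of the hypothalamic gene *Pmch* and 0.429 FPKM of *Neurod6*. The library labelled Sham 1 was left out of the main comparisons, the 3 HIP_Sham libraries were kept, and results that rest on either library are given with and without it. HIP_Sham 3 is hippocampal by its title, but its tissue and source labels name the hypothalamus. It held 143 FPKM of *Neurod6*, 0.309 FPKM of *Avp* and 1.27 FPKM of *Pmch*, and was kept in HIP_Sham. Total counts ran from 15095273 to 17973481 per library. In the 5 unlesioned hypothalamic libraries used, this depth gave *B2m* 990 to 1227 counts, but gave *Psmb9* 10 to 21 and *Nlrc5* 10 to 19. FPKM (fragments scaled by transcript length and by library size) allows levels of different genes to be compared per length. The gene length that FPKM and count together imply differed between libraries by at most 1.32-fold for 9 of the genes and by 2.86-fold for *Nlrc5* (2604 to 7444 bases), so FPKM orders *Nlrc5* between libraries less surely than the counts used in the tests. Counts of *H2-D1* were not whole numbers in 18 of 24 libraries and those of *H2-T23* in 17, against at most 3 for the other members, and the values of these heavy chains, which have near copies in the genome, are uncertain to that extent.

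Of the 10 genes, 8 lie in the MHC region of chromosome 17 in GRCm38: *Tapbp* at chr17:33915899-33929292, *H2-K1* at chr17:33996017-34000347, *Psmb9* at chr17:34181987-34187764, *Tap1* at chr17:34187553-34197225, *Psmb8* at chr17:34197721-34201454, *Tap2* at chr17:34203527-34216321, *H2-D1* at chr17:35262730-35267499 and *H2-T23* at chr17:36029773-36032855. *B2m* lies at chr2:122147686-122153083 and *Nlrc5* at chr8:94434356-94527272. *Psmb9*, *Tap1*, *Psmb8* and *Tap2* are neighbours, and the starts that RefSeq gives for *Psmb9* and *Tap1* are 226 bases apart on opposite strands, so that both genes share the stretch shown under *Tap1*. RefSeq promoters (GRCm38.p6, 250 bases before to 50 after a start) were matched for 8 of the 10, all but *Tap2* and *Nlrc5*. The 5 stretches shown belong to members that rose together after the lesion, and the capitals mark letters of the motifs searched on both strands: CCAAT (the Y box), which CCAATCAG extends by 3 bases, TGACG (the X2 or CRE core), the core of the interferon-stimulated response element (a pair of GAAA with 2 bases between them), its shorter form GAANNGAAA, and GGGNNTTCC (an NF-kB type). They are written 5′ to 3′ along each gene.

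H2-K1, chr17:34000324-34000497, minus strand, ending 10 bases after a start: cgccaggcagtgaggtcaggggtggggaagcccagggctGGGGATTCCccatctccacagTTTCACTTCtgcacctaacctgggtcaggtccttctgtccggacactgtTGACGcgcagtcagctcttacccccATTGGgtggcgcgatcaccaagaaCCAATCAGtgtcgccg
H2-D1, chr17:35262894-35263053, plus strand, from 200 to 41 bases before the start: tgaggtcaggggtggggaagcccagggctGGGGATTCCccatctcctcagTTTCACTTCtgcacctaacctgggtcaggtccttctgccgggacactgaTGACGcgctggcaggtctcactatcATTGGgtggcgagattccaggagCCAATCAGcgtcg
H2-T23, chr17:36032702-36032851, minus strand, 150 bases before the start: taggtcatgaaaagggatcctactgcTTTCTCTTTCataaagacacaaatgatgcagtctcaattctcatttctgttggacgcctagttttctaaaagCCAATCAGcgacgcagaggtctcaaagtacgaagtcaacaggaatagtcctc
B2m, chr2:122147537-122147656, plus strand, from 150 to 31 bases before the start: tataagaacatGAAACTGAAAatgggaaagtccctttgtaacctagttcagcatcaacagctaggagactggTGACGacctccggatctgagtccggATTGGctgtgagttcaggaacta
Tap1, chr17:34187331-34187555, plus strand, ending at the base before the start: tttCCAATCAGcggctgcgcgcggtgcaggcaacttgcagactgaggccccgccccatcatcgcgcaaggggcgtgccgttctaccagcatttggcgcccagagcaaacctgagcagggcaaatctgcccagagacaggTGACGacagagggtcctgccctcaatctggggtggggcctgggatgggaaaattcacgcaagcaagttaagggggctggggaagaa

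The *H2-K1* and *H2-D1* stretches share an unbroken run of 46 bases and hold the same marked letters in the same order: the NF-kB type, the reverse of the shorter interferon-response letters, the X2 core, the Y box on the opposite strand and CCAATCAG. CCAATCAG, which includes CCAAT, stood in the promoters of 5 of the 8 members with a promoter (*H2-K1*, *H2-D1*, *H2-T23*, *Tap1* and *Psmb9*) and in 4.1% of 32851 promoters of the same length. CCAAT alone stood in 7 of the 8 and in 37.4% of all promoters, and TGACG in 5 of the 8 and in 20.8%. For *Tap1* and *Psmb9* the matches of CCAATCAG, CCAAT and TGACG are the same sites in the stretch they share, counted for each gene. The response element core stood in those of *B2m* and *H2-T23* (3.44% of all), GAANNGAAA in those of *H2-K1* and *H2-D1* (7.52%), GGGNNTTCC also in those of *H2-K1* and *H2-D1* (5.82%), and TTCNNNGAA, the letters of a GAS-type site, in that of *Psmb8* alone (8.3%). A match of letters is a description and no evidence of binding.

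In hypothalamic tissue the class I machinery rose after the lesion at both times, for all 10 genes with growth hormone and for 9 of 10 without it. In the mice given growth hormone, where no library was in doubt, all 10 genes were higher in PEL_3d_GH than in Sham_GH and all 10 in PEL_10d_GH than in Sham_GH (edgeR's quasi-likelihood test, Benjamini-Hochberg adjusted p from 4.21e-07 to 0.000575 at day 3 and from 1.56e-07 to 0.00206 at day 10). These 2 comparisons share the Sham_GH libraries. The largest rises were those of *Psmb8*, *Nlrc5* and *Psmb9* at day 3, and the smallest those of *Tapbp* and *Tap2* at both days. A rise was common among all genes: 26.9% of 14743 genes tested were higher at day 3 and 17.7% of 14686 at day 10. By log2 fold change, 3.92% of genes lay above *Psmb8* at day 3 and 17% above *Tap2*. All 10 members passed the filter on low counts in these and all other comparisons.

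**Figure D1:**
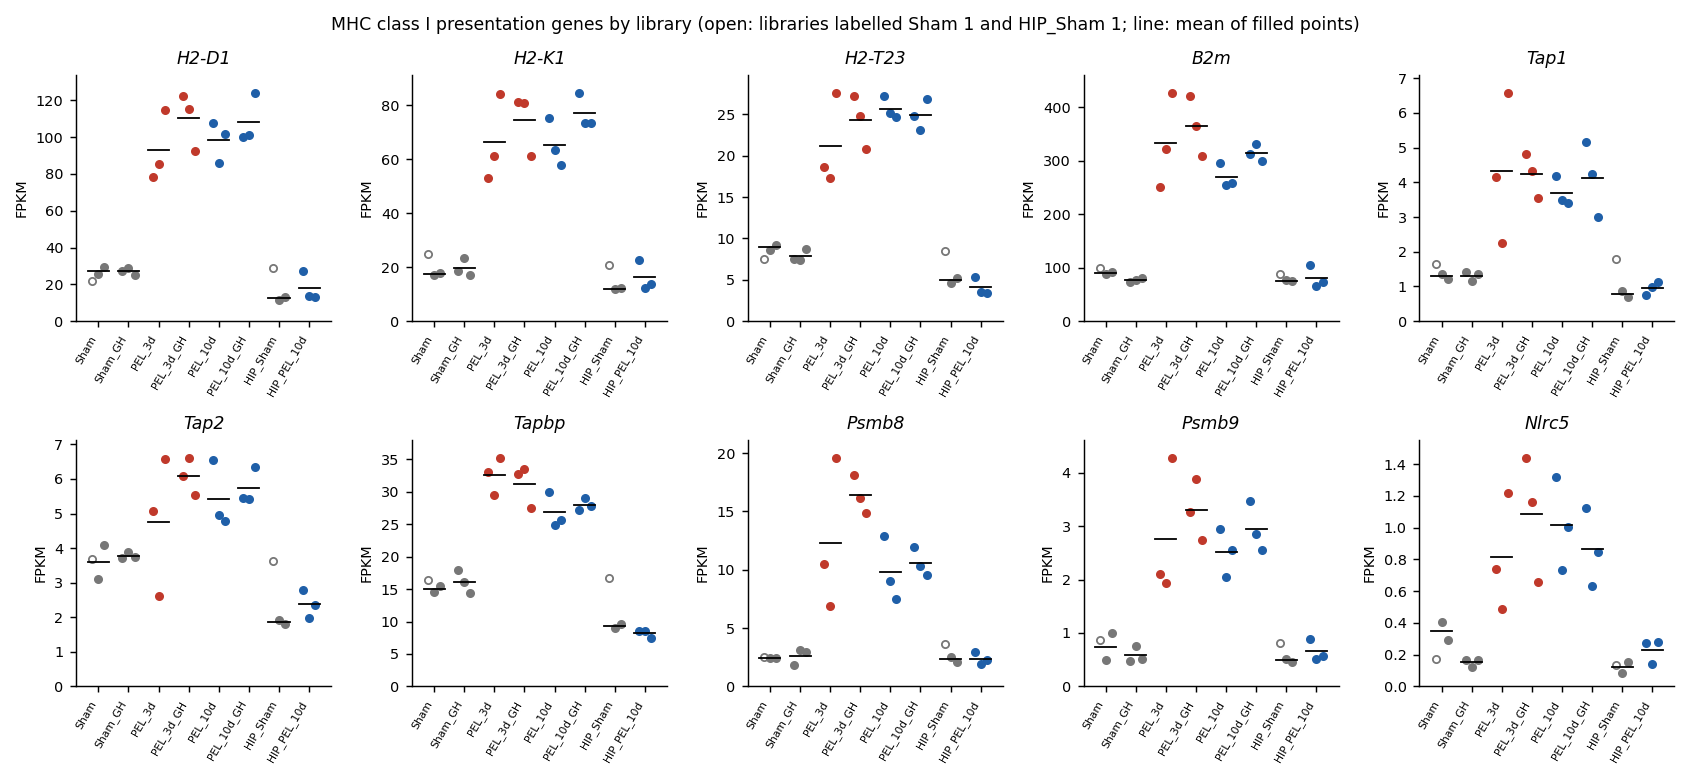
FPKM of each gene (vertical axis, from 0, a separate scale in each panel) in the 24 libraries, grouped along the horizontal axis; each point is a library, open points are the libraries labelled Sham 1 and HIP_Sham 1, and lines are means of the filled points. In 9 of the 10 panels every one of the 12 lesioned hypothalamic libraries lies above every filled unlesioned hypothalamic library, *Tap2* being the exception, and the hippocampal groups lie low.

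The classical heavy chains *H2-D1* and *H2-K1*, which present peptides to CD8 T cells, moved side by side. *H2-D1* was at 27.1, 28.8 and 25.2 FPKM in Sham_GH, at 122, 115 and 92.7 FPKM in PEL_3d_GH and at 100.2, 101 and 124 FPKM in PEL_10d_GH. Every lesioned library stood well above every unlesioned one, and the rise was 4.04-fold at day 3 (log2 fold change 2.01 ± 0.11, SE, n = 3 and 3, edgeR adjusted p = 5.84e-07) and 3.97-fold at day 10 (adjusted p = 8.18e-07). *H2-K1* was at 18.8, 23.5 and 17.1 FPKM in Sham_GH, at 81.3, 81.0 and 61.2 FPKM in PEL_3d_GH and at 84.6, 73.5 and 73.6 FPKM in PEL_10d_GH. It was 3.63-fold and 3.80-fold higher (edgeR adjusted p = 4.56e-06 and 2.22e-06). *H2-T23*, a nonclassical heavy chain that shows leader peptides of other class I molecules to natural killer cell receptors, was at 7.55, 7.41 and 8.67 FPKM in Sham_GH, at 27.3, 24.8 and 20.8 FPKM in PEL_3d_GH and at 24.8, 23.2 and 26.9 FPKM in PEL_10d_GH. Its rise was 3.03-fold and 3.12-fold (edgeR adjusted p = 6.01e-06 and 3.32e-06), and lesioned and unlesioned groups did not overlap for any of these heavy chains.

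*B2m* was the most abundant member per length in all 24 libraries. It was at 73.6, 76.7 and 81.4 FPKM in Sham_GH, at 421, 366 and 309 FPKM in PEL_3d_GH and at 312, 330.4 and 299.7 FPKM in PEL_10d_GH, without overlap between lesioned and unlesioned libraries. It rose 4.65-fold at day 3 (log2 fold change 2.22 ± 0.11, SE) and 4.0-fold at day 10 (2.0 ± 0.06), with edgeR adjusted p = 4.21e-07 and 1.56e-07.

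The peptide transporter and its partner rose unequally. *Tap1* was at 1.41, 1.16 and 1.36 FPKM in Sham_GH, at 4.81, 4.34 and 3.55 FPKM in PEL_3d_GH and at 5.17, 4.24 and 3.01 FPKM in PEL_10d_GH. It rose 3.06-fold and 3.11-fold (edgeR adjusted p = 2.78e-05 and 0.000301). *Tap2*, the other subunit of the same heterodimer, was at 3.71, 3.90 and 3.75 FPKM in Sham_GH, at 6.09, 6.60 and 5.55 FPKM in PEL_3d_GH and at 5.45, 5.43 and 6.34 FPKM in PEL_10d_GH. It rose 1.58-fold and 1.43-fold (edgeR adjusted p = 0.000575 and 0.00206), although at day 10 its call was lost when all hypothalamic groups shared 1 fit (adjusted p = 0.0910). *Tapbp* stood higher in unlesioned tissue than either transporter subunit, at 18.0, 16.1 and 14.4 FPKM in Sham_GH, at 32.7, 33.5 and 27.5 FPKM in PEL_3d_GH and at 27.2, 29.0 and 27.8 FPKM in PEL_10d_GH. Its 1.87-fold and 1.70-fold rises were smaller than those of the heavy chains but larger than the spread between libraries (edgeR adjusted p = 5.17e-05 and 9.48e-05).

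The immunoproteasome subunits and *Nlrc5* began at low levels and rose at both days with growth hormone. *Psmb8*, the chymotrypsin-like subunit that takes the place of *Psmb5*, was at 1.81, 3.16 and 2.94 FPKM in Sham_GH, at 18.2, 16.1 and 14.8 FPKM in PEL_3d_GH and at 12, 10.4 and 9.52 FPKM in PEL_10d_GH. It rose 5.97-fold at day 3 (log2 fold change 2.58 ± 0.20, SE) and 3.88-fold at day 10 (1.96 ± 0.19), with edgeR adjusted p = 4.94e-06 and 7.54e-05. *Psmb9*, which takes the place of *Psmb6*, was at 0.473, 0.763 and 0.504 FPKM in Sham_GH, at 3.26, 3.88 and 2.75 FPKM in PEL_3d_GH and at 3.47, 2.85 and 2.54 FPKM in PEL_10d_GH. It rose 5.40-fold and 4.87-fold (edgeR adjusted p = 8.75e-05 and 0.000228). *Nlrc5* was at 0.169, 0.124 and 0.167 FPKM in Sham_GH, at 1.44, 1.16 and 0.658 FPKM in PEL_3d_GH and at 1.12, 0.631 and 0.849 FPKM in PEL_10d_GH. On counts it rose 5.67-fold and 5.42-fold (log2 fold changes 2.50 ± 0.30 and 2.44 ± 0.32, edgeR adjusted p = 8.53e-05 and 0.000395), from 10 to 17 counts per Sham_GH library.

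The same genes were compared in mice without growth hormone, where the Sham group rests on 2 libraries and both comparisons share them. *H2-D1* was at 25.4 and 29.2 FPKM in the pair of Sham libraries, at 78.3, 85.5 and 115 FPKM in PEL_3d and at 107, 86.0 and 102 FPKM in PEL_10d, and rose 3.38-fold and 3.59-fold (edgeR adjusted p = 1.06e-05 and 0.000133). *B2m* was at 87.4 and 91.5 FPKM in the pair of Sham libraries, at 249.9, 322 and 426 FPKM in PEL_3d and at 295, 254 and 258 FPKM in PEL_10d, and rose 3.68-fold and 2.96-fold (edgeR adjusted p = 2.57e-05 and 7.52e-05). *Psmb8* was at 2.42 and 2.44 FPKM in the pair of Sham libraries, at 10.5, 6.87 and 19.6 FPKM in PEL_3d and at 12.9, 9.03 and 7.53 FPKM in PEL_10d, and rose 5.50-fold and 4.33-fold (edgeR adjusted p = 0.00129 and 0.00227). None of these lesioned libraries overlapped with Sham 2 and 3. In all, 9 of the 10 genes were higher in PEL_3d than in Sham and 9 in PEL_10d, *Tap2* being the exception in both (edgeR log2 fold change 0.38 ± 0.30, adjusted p = 0.342, and 0.57 ± 0.17, adjusted p = 0.0809). Of all genes tested, 22.3% and 7.98% were higher. With the library labelled Sham 1 included, 7 members were higher at day 3, where *Tap1* (adjusted p = 0.0595) and *Psmb9* (0.0541) missed the threshold, and 8 at day 10, where *Psmb9* did (0.0911), against 10.4% and 1.81% of all genes.

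Some of these calls changed when a library was left out. PEL_3d 3 was the highest PEL_3d library for all 10 genes, and the coefficient of variation of *Psmb8* was 53.2% in PEL_3d against 10.2% in PEL_3d_GH. *Tap2* in PEL_3d 2 (2.61 FPKM) lay below Sham 2 and 3 (3.10 and 4.10 FPKM), and without PEL_3d 2 *Tap2* passed the threshold (log2 fold change 0.69, edgeR adjusted p = 0.00690). Leaving out Sham 2 or Sham 3 leaves 1 Sham library, which is then assumed to vary like the lesioned group. A call lost there does not show that it rested on that library. At day 3, *Tap1* missed the threshold without Sham 2 or Sham 3 (log2 fold change 1.84 and 1.63 against 1.73 with both, adjusted p = 0.0520 and 0.0670), and *Psmb9* without Sham 2 (1.41 against 1.82, adjusted p = 0.103). At day 10, *Tapbp* missed it without Sham 2 (0.76 against 0.78, adjusted p = 0.0651). *Nlrc5* missed it at day 10 without Sham 2 or Sham 3 (1.77 and 1.95 against 1.86, adjusted p = 0.130 and 0.0937), as did *Psmb9* (1.31 and 2.30 against 1.71, adjusted p = 0.208 and 0.0636).

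**Figure D2:**
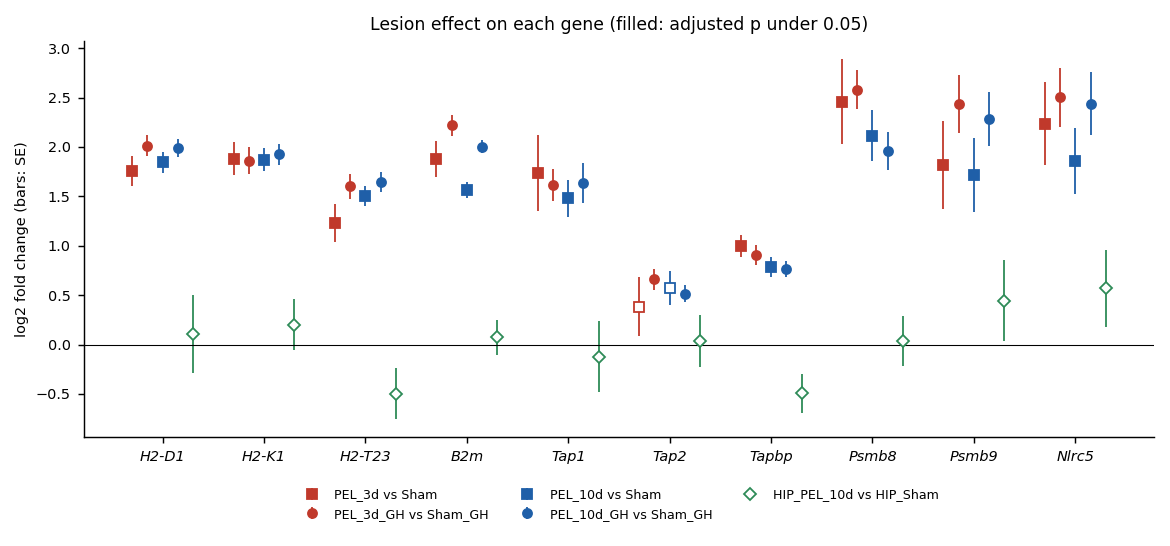
log2 fold change of each gene (vertical axis, bars are SE) in the 4 hypothalamic lesion comparisons and in the hippocampal one; filled symbols passed an adjusted p of 0.05 in edgeR. The hypothalamic symbols lie above 0 for every gene, lowest for *Tap2* and *Tapbp*, and the hippocampal symbols lie between −0.50 and 0.57, none of them filled.

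Over all hypothalamic libraries but the one labelled Sham 1, the lowest of the 12 lesioned libraries lay above the highest of the 5 unlesioned ones for 9 of the 10 members, against 10.0% of 15798 genes with a mean of at least 0.1 FPKM. Across the 17 libraries the members' log2(FPKM + 0.1) values moved together, with Pearson's r from 0.66 for *B2m* and *Tap2* to 0.99 for *H2-D1* and *H2-K1* over 45 pairs (median 0.93). Over the 12 lesioned libraries alone r ran from 0.03 for *H2-T23* and *Tapbp* to 0.83 for *H2-K1* and *Psmb9* (median 0.65). The libraries are the same for all pairs, and the first range includes the contrast of lesioned with unlesioned tissue. The 10 other genes whose pattern over the 17 libraries was nearest to the mean of the members, out of 13386 genes with a mean of at least 1 FPKM, were *Gbp2*, *Parp14*, *Slc11a1*, *Ctss*, *Cd300a*, *Ptafr*, *Cd48*, *Gpnmb*, *Cers2* and *Itgax* (r from 0.967 to 0.974).

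The rises were unequal within the pathway, as ratios of FPKM show. *Psmb8* stood at 0.0443 ± 0.0114 of *Psmb5* (SD, n = 5) in unlesioned tissue, at 0.211 ± 0.0695 (n = 6) at day 3 and at 0.173 ± 0.0251 (n = 6) at day 10. Each day differed from unlesioned tissue (exact two-sided permutation test, p = 0.00433 for each, 0.0247 after adjustment over 40 such tests). *Psmb9* went from 0.0087 of *Psmb6* to 0.0319 and 0.0339, and *Tap1* from 0.356 of *Tap2* to 0.795 and 0.711, with the same exact p. *Psmb10* went from 0.142 of *Psmb7* to 0.189 and 0.20 (exact permutation p = 0.00433 and 0.00866, adjusted 0.0247 and 0.0346). The transcripts of *Psmb8* and *Psmb9* thus remained well below those of their constitutive partners in lesioned tissue. *B2m* per heavy chain (the sum of *H2-D1*, *H2-K1* and *H2-T23*) was 1.79 ± 0.121 at day 3 and 1.46 ± 0.117 at day 10 (exact permutation p = 0.00649, adjusted 0.0324), against 1.52 ± 0.179 in unlesioned tissue. The share of *H2-T23* in the 3 heavy chains was 15.4% in unlesioned tissue, 11.7% at day 3 (exact permutation p = 0.00866, adjusted 0.0346) and 12.7% at day 10 (exact permutation p = 0.0303, adjusted 0.0932). These groups join libraries with and without growth hormone. Within the growth hormone groups alone the ratios of *Psmb8*, *Psmb9* and *Tap1* gave the smallest p that 3 against 3 libraries allow (exact permutation p = 0.1 for each).

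**Figure D3:**
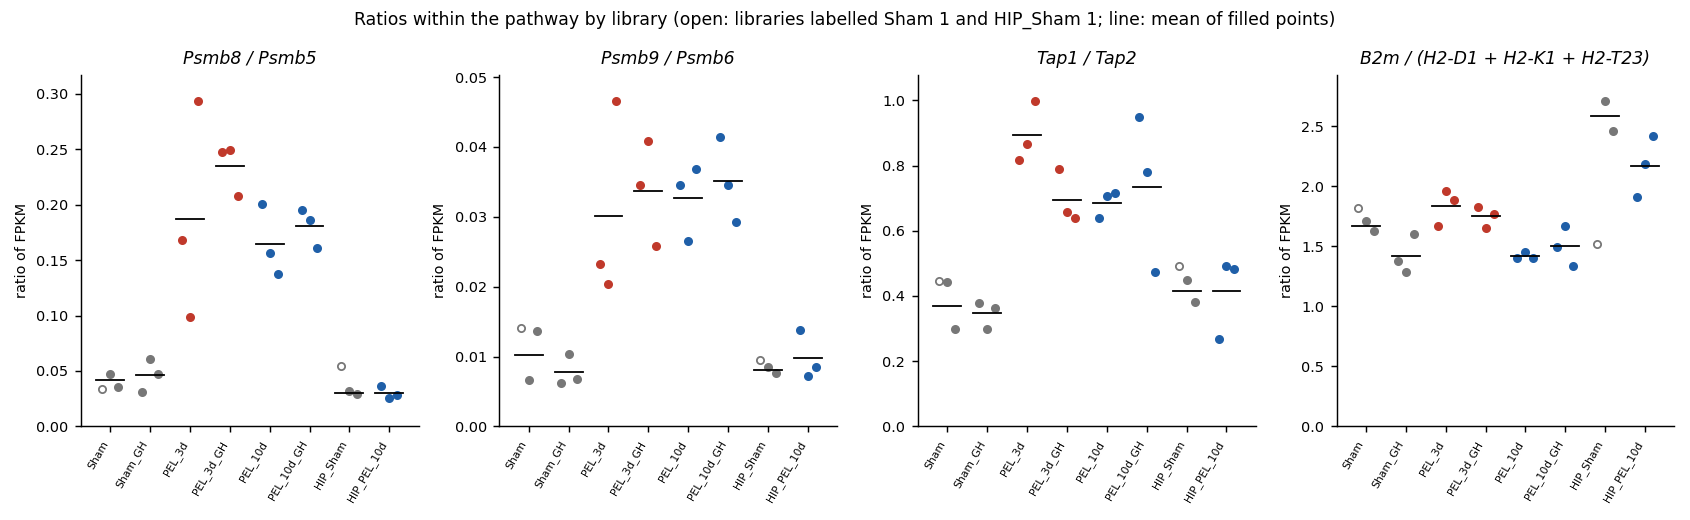
Ratios of FPKM within the pathway (vertical axes) in the 24 libraries by group; each point is a library, open points are the libraries labelled Sham 1 and HIP_Sham 1, and lines are means of the filled points. *Psmb8* against *Psmb5*, *Psmb9* against *Psmb6* and *Tap1* against *Tap2* lie higher in lesioned hypothalamic groups than in unlesioned ones.

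From day 3 to day 10 no member passed the threshold over both growth hormone states or without growth hormone, and 1, *Psmb8*, was lower with growth hormone. Over both growth hormone states (6 libraries a day) the members' log2 fold changes of day 10 over day 3 ran from −0.50 (*Psmb8*) to 0.15 (*H2-T23*) with a median of −0.13, while 21.6% of 15091 genes were lower and 16.6% higher. *Psmb8* (−0.50 ± 0.21, edgeR adjusted p = 0.0836), *B2m* (−0.27 ± 0.11, 0.0682) and *Tapbp* (−0.19 ± 0.08, 0.0717) lay closest to a change, the 3 members with an unadjusted p under 0.05; DESeq2 called 0 members. Leaving out single libraries added calls: *B2m* passed the threshold without PEL_3d 1 or PEL_3d_GH 3 (log2 fold change −0.35 and −0.32). *Tapbp* passed it without PEL_3d 2, PEL_3d_GH 3 or PEL_10d 1 (−0.23, −0.22 and −0.22), *Psmb8* without PEL_3d 2 (−0.65), and *H2-T23* in the other direction without PEL_3d 3 (0.28). In mice without growth hormone 0 members passed in PEL_10d against PEL_3d by edgeR (0 at an unadjusted p under 0.05, and 0 by DESeq2), where 18.5% of 14807 genes did, although *B2m* did without PEL_3d 1 (−0.48) and *H2-T23* without PEL_3d 3 (0.52). With growth hormone, *Psmb8* was 1.55-fold lower in PEL_10d_GH than in PEL_3d_GH (edgeR log2 fold change −0.63 ± 0.13, adjusted p = 0.0152), where 10.8% of 14838 genes were lower. It missed the threshold without PEL_3d_GH 1 (log2 fold change −0.54, adjusted p = 0.0787), PEL_3d_GH 2 (−0.63, 0.0502) or PEL_10d_GH 2 (−0.58, 0.0713), and without PEL_3d_GH 3 *B2m* and *Tapbp* were called lower beside it.

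Of the microglia markers, 10 of 10 were lower at day 10 than at day 3 over both growth hormone states, their median being −0.87 on the log2 scale. Of the macrophage and monocyte markers 7 of 10 were, with a median of −1.10, where 21.6% of 15091 genes were lower. *Pf4* did not pass the filter on low counts in PEL_10d against Sham. It may have passed it here through the day 3 libraries alone, and its direction would then be no test. The summed level of the microglia list was 118 to 137 FPKM in Sham_GH, 665 to 872 FPKM at day 3 and 331 to 515 FPKM at day 10. That of the macrophage and monocyte list was 12.9 to 24.4 FPKM in Sham_GH, 435 to 1882 FPKM at day 3 and 145 to 786 FPKM at day 10. The summed level of the 10 class I genes was 153 to 162 FPKM in Sham_GH, 456 to 726 FPKM at day 3 and 473 to 581 FPKM at day 10, so that the class I sum and the macrophage and monocyte sum overlapped between the days and the microglia sum did not. These markers rose with the class I genes after the lesion (10 of 10 microglia markers and 9 of 9 macrophage and monocyte markers tested in PEL_3d_GH against Sham_GH), as did 5 of 8 endothelial markers and 5 of 7 astrocyte markers, of which the other 2 fell, while 5 of 6 neuron markers fell. *Ly6c2*, *Plac8*, *Ms4a7* and *Pf4* did not pass the filter on low counts in Sham_GH against Sham. Those of them among the 9 passed it here through lesioned libraries, and their direction is no test. Of all genes, 26.9% were higher and 25.1% lower. Their part in the class I result was not tested. Over the 12 marker lists, r between the mean standardised level of the 10 class I genes and the log2 summed FPKM of a list ran from −0.82 (neurons) to 0.84 (macrophages and monocytes) in the 6 libraries of day 3, from −0.67 (neurons) to 0.78 (lymphocytes) in the 6 of day 10, and from −0.67 (neurons) to 0.53 (macrophages and monocytes) in all 12. This is a description over few libraries that share their groups.

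**Figure D4:**
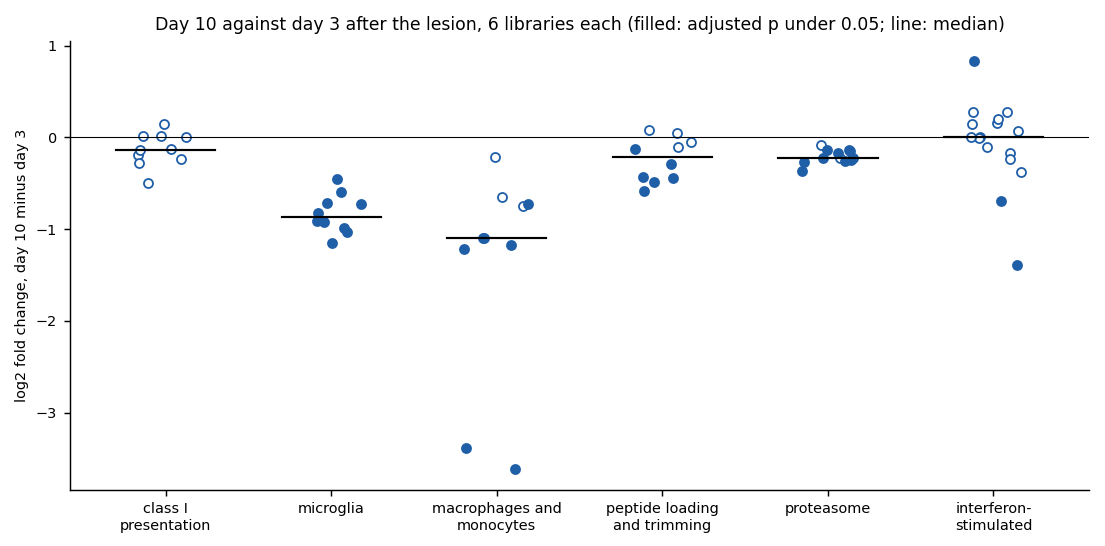
log2 fold change of day 10 over day 3 after the lesion (vertical axis) for each gene of 6 lists; each point is a gene, filled where its adjusted p was under 0.05 in edgeR, and lines are medians. The class I presentation genes lie from −0.50 to 0.15 with none filled, the 10 microglia markers all lie below 0 and are filled, and the macrophage and monocyte markers reach −3.62.

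Other genes of the pathway were followed in lists. Of 12 other class I or class I-like heavy chains tested, 10 were higher and 2 lower in PEL_3d_GH than in Sham_GH. There 26.9% of all genes were higher and 25.1% lower. In PEL_10d_GH 7 were higher and 1 lower, where 17.7% of all genes were higher and 13.3% lower. *H2-Q7* (log2 fold change 1.94), *Hfe*, which takes part in the control of iron (1.54), *H2-Q6* (1.27) and *H2-Q4* (1.23) led at day 3, and *H2-Q7* (2.91) and *H2-Q6* (2.23) at day 10. *H2-Q6* and *H2-Q7* are near copies, and reads may be split between them. *H2-Q2*, named after its values were seen, went the other way: it was at 21.2, 18.9 and 19.0 FPKM in Sham_GH, at 9.51, 11.5 and 12.9 FPKM in PEL_3d_GH and at 13.3, 10.8 and 13.3 FPKM in PEL_10d_GH (edgeR log2 fold change −0.83 and −0.68, adjusted p = 0.000360 and 0.00106). Without growth hormone *H2-Q2* was lower in PEL_3d than in Sham (−1.26, adjusted p = 1.84e-05), and in PEL_10d it was not called (−0.47 ± 0.33, 0.432).

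Of the peptide loading and trimming genes, 5 of 10 were higher at day 3 with growth hormone and 1 lower, led by *Sec61a1*, a translocon subunit (log2 fold change 0.99), *Erap1*, which trims peptides in the endoplasmic reticulum (0.91), *Calr*, a chaperone (0.82), and *Pdia3*, a thiol oxidoreductase of the loading complex (0.71). Of all genes tested, 26.9% were higher and 25.1% lower at day 3, and 17.7% and 13.3% at day 10. At day 10, 4 were higher and 1 lower. Without growth hormone 4 were higher in PEL_3d and 2 in PEL_10d than in Sham, and *Calr* stood at 0.36 and −0.12 and *Pdia3* at 0.30 and −0.12. *Calr* was lower in Sham_GH than in Sham (−0.29, edgeR adjusted p = 0.0268), a call that was not made with the library labelled Sham 1 included. The summed level of the list was 825 to 850.2 FPKM in Sham 2 and 3 and 748 to 792 FPKM in PEL_10d, below it, but 702 to 739 FPKM in Sham_GH and 793 to 858 FPKM in PEL_10d_GH, above it. Of 12 proteasome genes, 8 were higher at day 3, led by the activator subunit *Psme2* (0.68), the remaining immunoproteasome subunit *Psmb10* (0.53), *Psmb6* (0.37) and the assembly factor *Pomp* (0.33), and 1, *Psme2* (0.42), at day 10. Without growth hormone 4 of 12 were higher in PEL_3d than in Sham, against 22.3% of all genes. In PEL_10d 1 was, against 7.98%, and it was *Psmb10* (0.62, edgeR adjusted p = 0.0203), while *Psme2* stood at 0.33 (0.213). From day 3 to day 10 over both growth hormone states, 6 of 10 loading and trimming genes and 9 of 12 proteasome genes were lower, against 21.6% of all genes, with *Sec61a1* (−0.58) and *Psma1* (−0.37) lowest.

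Of 24 class I regulators and interferon signalling genes tested, 16 were higher and 2 lower in PEL_3d_GH than in Sham_GH, and 15 higher and 1 lower in PEL_10d_GH. Of all genes, 26.9% were higher and 25.1% lower at day 3 and 17.7% and 13.3% at day 10. *Irf8*, a myeloid transcription factor (log2 fold change 3.92 and 3.10), and *Ciita*, the class II counterpart of *Nlrc5* (2.01 and 1.63), led at both days. *Ciita* did not pass the filter on low counts in Sham_GH against Sham. It is among the genes counted as higher, but it passed here through lesioned libraries, so its direction is no test. Of 16 interferon-stimulated genes, 16 were higher at day 3 and 15 at day 10, with medians of 1.43 and 1.62 and with *Ifi27l2a* (3.13), *Bst2* (2.84), *Isg15* (1.97) and *Rtp4* (1.83) leading at day 3. From day 3 to day 10, 1 of them was higher (*Iigp1*, 0.83) and 2 were lower (*Ifi27l2a*, −1.39, and *Bst2*, −0.69), against 16.6% of all genes higher and 21.6% lower. Of the interferon genes, values were taken for *Ifnb1* and *Ifng* only. *Ifnb1* is listed at 0 in all 24 libraries, and *Ifng* reached 0.215 FPKM at most, in PEL_10d 3.

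Of 9 listed receptors that read class I molecules, 6 passed the filter on low counts at day 10 against day 3 over both growth hormone states. *Lilrb4a*, *Klra2* and *Cd160* had log2 fold changes of −1.47, −0.40 and 0.08 and were not called. *Pirb*, an inhibitory receptor of myeloid cells that binds class I molecules, was at 0.117, 0.225 and 0.0970 FPKM in Sham_GH, at 4.15, 4.92 and 2.96 FPKM in PEL_3d_GH and at 1.51, 1.53 and 3.43 FPKM in PEL_10d_GH. It was higher after the lesion at both days (edgeR log2 fold change 4.71 and 3.83) and lower at day 10 than at day 3 over both growth hormone states (−0.80, adjusted p = 0.0480), but it was not called lower in PEL_10d against PEL_3d alone (−0.70, 0.255) or in PEL_10d_GH against PEL_3d_GH alone (−0.89, 0.0857). *Cd8a*, a CD8 chain of cytotoxic T cells and of some dendritic cells, was at most 0.139 FPKM at day 3, and at 0.202, 0.614 and 0.171 FPKM in PEL_10d and 0.582, 0.225 and 0.248 FPKM in PEL_10d_GH. *Cd8a* and *Cd8b1* passed the filter in the pooled comparison of the days but not in PEL_10d against PEL_3d, and a gene that passes through the day 10 libraries alone has to be higher there, so no test of the difference is given. The 14 lymphocyte markers, of which 5 passed the filter, had a summed level of 2.66 to 3.65 FPKM at day 3 and of 4.72 to 9.27 FPKM at day 10, and the T-cell gene *Cd3e* was at 0.648 FPKM at most.

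Growth hormone was the only labelled difference in 3 of the comparisons, and none of the class I genes passed the threshold in any of them by edgeR, with 0, 2 and 1 members at an unadjusted p under 0.05 and 0, 0 and 0 called by DESeq2. In PEL_3d_GH against PEL_3d the log2 fold changes of the members ran from −0.09 (*Nlrc5*, SE 0.33) to 0.40 (*Psmb8*, SE 0.32), with 0.0270% of 14798 genes called. In PEL_10d_GH against PEL_10d they ran from −0.03 (*H2-T23*, SE 0.08) to 0.25 (*H2-K1*, SE 0.10), with 0% of 14763 genes called by edgeR (550 higher and 356 lower at an unadjusted p under 0.05, and 41 called by DESeq2). In Sham_GH against Sham 2 and 3 they ran from −0.37 (*Nlrc5*, SE 0.40) to 0.27 (*Psmb8*, SE 0.29), with 1.09% of 14539 genes called.

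In the hippocampus of lesioned mice no change in the class I genes passed the threshold at day 10. *H2-D1* was at 29.1, 11.6 and 13.1 FPKM in the HIP_Sham libraries, against 27.2, 13.8 and 13.3 FPKM in HIP_PEL_10d. *B2m* was at 88.8, 76.8 and 75.0 FPKM in the HIP_Sham libraries, against 105, 65.1 and 74.1 FPKM in HIP_PEL_10d. *Psmb8* was at 3.63, 2.52 and 2.11 FPKM in the HIP_Sham libraries, against 2.94, 1.91 and 2.28 FPKM in HIP_PEL_10d. The groups overlapped for each of these. *Tapbp* was at 16.7, 9.0 and 9.65 FPKM in HIP_Sham and at 8.49, 8.58 and 7.50 FPKM in HIP_PEL_10d, without overlap. It was the member with an unadjusted p under 0.05 (edgeR adjusted p = 0.486). Log2 fold changes ran from −0.50 (*H2-T23*, SE 0.26, and *Tapbp*, SE 0.19) to 0.57 (*Nlrc5*, SE 0.39). By edgeR 0 of 10 members passed (1 at an unadjusted p under 0.05, and 0 by DESeq2), with 0% of 14039 genes called (510 higher and 924 lower at an unadjusted p under 0.05, and 200 called by DESeq2). HIP_Sham 1, which held hypothalamic transcripts, was the highest of its group for 9 of the 10 members. Without HIP_Sham 3, whose labels conflict, 0 of 10 members passed. Without HIP_Sham 1, 0 of 10 members passed again, with *H2-T23* at −0.28 and *Nlrc5* at 0.93 (SE 0.45, adjusted p = 0.246), while 6.15% of 14191 genes were called. HIP_PEL_10d 1 was the highest of its group for 7 members, with 22.6 FPKM of *H2-K1* against 12.4 and 13.9 FPKM, and it also held 11 FPKM of the microglia gene *Trem2* against 6.69 and 7.73 FPKM. The hippocampal libraries also differed in choroid plexus markers, whose summed level was 19.1, 4352 and 5453 FPKM in HIP_Sham 1, 2 and 3 and 135, 39.1 and 801 FPKM in HIP_PEL_10d 1, 2 and 3. The median log2 fold change of the 8 markers was −3.33, with 0 of 8 called. Their part in the hippocampal values and in the interaction was not tested.

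The lesioned hypothalamus and the lesioned hippocampus were compared at day 10 without any Sham library. All 10 members were higher in PEL_10d than in HIP_PEL_10d, where 30.9% of 14561 genes were higher and 29.7% lower. The differences ran from 1.93-fold for *Tap2* (edgeR adjusted p = 0.000922) to 4.61-fold for *H2-D1* (4.17e-05) and 5.27-fold for *H2-T23* (1.85e-06). Without a lesion, in a contrast that was not tested, *H2-D1* was at 25.2 to 29.2 FPKM in the 5 unlesioned hypothalamic libraries and at 11.6 and 13.1 FPKM in HIP_Sham 2 and 3, whereas *Psmb8* was at 1.81 to 3.16 FPKM and at 2.52 and 2.11 FPKM. Of the other heavy chains 12 of 12 were higher in the hypothalamus, led by *H2-Q2* and *H2-Q1*. *H2-Q1*, *H2-Q2* and *H2-Q7* did not pass the filter on low counts in HIP_PEL_10d against HIP_Sham. Here they passed it through hypothalamic libraries, and their direction is no test. *H2-Q2* was at 22.3, 15.9 and 7.54 FPKM in PEL_10d and at 0.0990, 0 and 0 FPKM in HIP_PEL_10d. It followed the tissue markers and not the label in the libraries that stood apart, with 0.0570 FPKM in the library labelled Sham 1 and 21.2 FPKM in HIP_Sham 1. Of the interferon-stimulated genes 16 of 16 were higher in the hypothalamus, led by *Ifit3* (log2 fold change 2.83), *Oasl2* (2.74), *Ifit1* (2.70) and *Ifi27l2a* (2.69). The same limit holds for *Ifi27l2a*, which did not pass the filter in HIP_PEL_10d against HIP_Sham.

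The difference between the regions in the effect of the lesion at day 10 was tested as an interaction. It was positive for all 10 members and passed the threshold for 5: *Psmb8* (log2 difference 2.08 ± 0.37, SE, edgeR adjusted p = 0.0331), *H2-T23* (2.0 ± 0.30, 0.0185), *H2-K1* (1.67 ± 0.33, 0.0426), *B2m* (1.49 ± 0.22, 0.0185) and *Tapbp* (1.28 ± 0.25, 0.0424). Of 15093 genes tested, 1.82% were called higher in this contrast. Without HIP_Sham 1, 7 members passed, *Tap1* and *H2-D1* joining the 5 (6.52% of all genes), and with the library labelled Sham 1, 3 did (0.624% of all genes), *Tapbp* and *H2-K1* missing the threshold. The number of calls varied when a library was left out, as did the share of all genes called higher. No member passed without Sham 2 (0% of all genes), Sham 3 (0%), PEL_10d 1 (0.267%), PEL_10d 3 (0.207%) or HIP_PEL_10d 3 (0.232%). There was 1 without HIP_PEL_10d 2 (0.226%), and there were 2 without HIP_Sham 3 (0.499%), 3 without HIP_Sham 2 (0.791%), 4 without PEL_10d 2 (2.11%) and 5 without HIP_PEL_10d 1 (1.74%). DESeq2 called 7, *Tap1* (adjusted p = 0.0301) and *H2-D1* (0.0175) beside the 5, and 3.60% of all genes. Without Sham 2 or Sham 3 the remaining Sham library is assumed to vary like the other groups. Over the fits with 1 library left out, the log2 difference ran from 1.36 to 1.70 for *B2m* and from 1.76 to 2.22 for *H2-T23*. It ran from 1.83 to 2.28 for *Psmb8*, from 1.44 to 1.93 for *H2-K1* and from 1.01 to 1.40 for *Tapbp*.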

How the data were processed

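mRNA of 24 mouse hypothalamic and hippocampal libraries was read as 1 table of the authors' values per gene. The authors aligned reads with Hisat2, assigned them to genes with featureCounts, and deposited estimated counts per gene and FPKM values (the labels name the builds GRCm38 and mm10). Of the deposited count values 8.22% were not whole, and counts were rounded. Gene identifiers were matched to symbols for 22219 of 22274 genes, since the symbols in the table were unreliable. Differences were tested with edgeR 4.0.16 in R 4.3.3 (quasi-likelihood test, TMM scaling, a filterByExpr minimum count of 10), with Benjamini-Hochberg adjustment over all genes tested and a threshold of 0.05. SE is the log2 fold change divided by the square root of F. Ratios of FPKM were tested by exact permutation with scipy 1.17.1. The scripts were tested on simulated data. Alternatives were DESeq2 1.42.0 and its size factors, no filter, a replicate block, 1 fit over all hypothalamic groups, limma 3.58.1 on log2(FPKM + 0.1), each library left out in turn, and the libraries that stood apart. The study left 1 Sham library out, and the library labelled Sham 1 was left out here for its transcripts. The members and lists were chosen with earlier results of these data known. Named genes were all members, up to 4 genes of each pathway list with the largest change among those past the threshold, the 10 genes most like the members, and marker genes, beside those named after their values were seen. Same-numbered libraries of different groups were not paired. No 2 libraries of a group held identical values or agreed within sampling noise.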

Additional observations from a re-analysis of the deposited data

Results flagged for a closer look

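The effect of the lesion at day 10 differed between hypothalamus and hippocampus for 5 of the 10 genes, by the interaction test of edgeR, against 1.82% of 15093 genes called higher. The fit includes HIP_Sham 1, which held hypothalamic transcripts, and from 0 to 7 members passed with 1 library left out. The difference in log2 fold change, hypothalamus minus hippocampus, was 2.08 for *Psmb8*, 2.0 for *H2-T23*, 1.67 for *H2-K1*, 1.49 for *B2m* and 1.28 for *Tapbp*. In the hypothalamus alone *Psmb8* stood 2.11 higher on the log2 scale and *B2m* 1.57, and in the hippocampus *Psmb8* was at 0.04 and *B2m* at 0.07. For *Tapbp* and *H2-T23*, part of the difference came from the hippocampal side, where both stood at −0.50 with HIP_Sham 1 included and at −0.26 and −0.28 without it.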

How the results depend on the processing

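Over all comparisons and alternatives, 1572 of 1650 values of single members kept their side of the threshold, 18 passed it newly, 60 lost it, and 0 called values changed direction, while 88 uncalled ones did. In both growth hormone lesion comparisons and in PEL_10d against HIP_PEL_10d all 10 members stayed called under the alternatives run, except *Tap2* at day 10 in 1 fit over all hypothalamic groups. That fit called 0 members in PEL_10d_GH against PEL_3d_GH (1 in the separate fit) and 1 member, *B2m*, at day 10 against day 3 (0 in the separate fit). In the interaction, limma and the library labelled Sham 1 each left 3 of 5 members called. With each library left out in turn, members called ranged from 7 to 10 in PEL_3d against Sham, from 6 to 9 in PEL_10d against Sham, from 0 to 1 in PEL_10d against PEL_3d, from 0 to 3 in PEL_10d_GH against PEL_3d_GH, from 0 to 2 at day 10 against day 3 and from 0 to 7 in the interaction. *Psmb9* and *Nlrc5* rest on the fewest counts in unlesioned tissue, and limma on FPKM did not call *Nlrc5* in PEL_3d against Sham (adjusted p = 0.118) or in PEL_10d against Sham (0.0852), *Tap1* in the former (0.0645) or *Psmb9* in the latter (0.0719).

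Counts of all genes called moved more, and the cause was not tested. With the library labelled Sham 1 they were 1683 instead of 6025 in PEL_3d against Sham, 269 instead of 1393 in PEL_10d against Sham, 0 instead of 159 in Sham_GH against Sham and 94 instead of 284 in the interaction. With limma on FPKM they were 3639 and 365 in the first and second of these, 1328 instead of 2742 in PEL_10d against PEL_3d, 2536 instead of 4547 in PEL_10d_GH against Sham_GH, 966 instead of 2315 in PEL_10d_GH against PEL_3d_GH, 0 instead of 4 in PEL_3d_GH against PEL_3d, 1 in Sham_GH against Sham and 4 instead of 0 in HIP_PEL_10d against HIP_Sham. In PEL_10d against HIP_PEL_10d limma shifted the median of all genes to 0.28 and called 6588 genes higher and 2339 lower, against 4501 and 4321 by edgeR. DESeq2 called 57 genes in PEL_3d_GH against PEL_3d, 41 in PEL_10d_GH against PEL_10d, 262 in Sham_GH against Sham, 200 in HIP_PEL_10d against HIP_Sham and 811 in the interaction. With 1 fit over all hypothalamic groups the counts were 4120 in PEL_10d_GH against PEL_3d_GH, 9 in PEL_3d_GH against PEL_3d, 2 in PEL_10d_GH against PEL_10d and 13 in Sham_GH against Sham, and without the filter 8 in PEL_3d_GH against PEL_3d and 360 in Sham_GH against Sham. Leaving out each library in turn gave 3395 to 6632 genes in PEL_3d against Sham, 205 to 1486 in PEL_10d against Sham, 1333 to 2800 in PEL_10d against PEL_3d, 704 to 4435 in PEL_10d_GH against PEL_3d_GH, 1 to 56 in PEL_3d_GH against PEL_3d, 44 to 190 in Sham_GH against Sham, 0 to 873 in HIP_PEL_10d against HIP_Sham and 0 to 1616 in the interaction.

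The replicate numbers did not pair the libraries: correlations of same-numbered deviations ran from −0.44 to 0.37, and from 0 to 4 of 6 libraries correlated best with their own number. With a replicate block, 1109 genes were called in PEL_10d_GH against PEL_3d_GH, 1 in PEL_3d_GH against PEL_3d, 317 in Sham_GH against Sham and 157 in the interaction, and no call of a member changed.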
